A study of Homo sapiens with 4 samples.

Results

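The genes of the FOS and JUN family were followed through an AURKA knockdown in MDA-MB-231 cells, a mesenchymal, triple-negative breast cancer cell line. The family was taken by gene symbol: FOS, FOSB, FOSL1 and FOSL2 (the FOS type) and JUN, JUNB and JUND (the JUN type), 7 genes of the 20140 present in all deposited tables. RNA was sequenced from cells with a knockdown of AURKA, labelled shA (2 libraries), and from control cells, labelled shC and called mock-transfected in the design text (2 libraries). All libraries came from the same line, grown in L-15 medium with serum, and the design text calls the libraries of a group biological replicates. The labels give no hairpin sequence, clone, or time after transfection. Nothing in them says whether replicates were grown on separate days, so p-values measure only the spread between these samples, which may be technical.

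AP-1 is a dimer of basic leucine zipper proteins that binds the TPA response element, TGACTCA, and related words. JUN proteins pair with each other or with a FOS protein, whereas FOS proteins need a JUN partner to bind DNA. FOS, FOSB, JUN and JUNB are immediate early genes, switched on within minutes of a growth signal, while FOSL1 (Fra-1) and FOSL2 (Fra-2) respond later and last longer. Sustained ERK signalling keeps FOSL1 high in mesenchymal breast cancer cells, where it is linked to invasion.

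Family genes are themselves controlled through such words. RefSeq promoter windows (GRCh38.p14, from 250 bases before the start to 50 after it) were found for 6 members. No window was found for FOSL1, so its promoter was not searched. The matches below are shown because the promoters differ in which of these words they carry. Both strands were searched, and the matched letters are in capitals with 30 bases on each side. Each sequence reads 5′ to 3′ on the gene's strand.
FOS, chr14:75278734-75278798, plus strand: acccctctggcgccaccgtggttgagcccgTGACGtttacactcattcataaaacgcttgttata
FOSL2, chr2:28392832-28392898, plus strand: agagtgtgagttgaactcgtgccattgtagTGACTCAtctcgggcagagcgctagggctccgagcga
JUN, chr1:58784077-58784144, minus strand: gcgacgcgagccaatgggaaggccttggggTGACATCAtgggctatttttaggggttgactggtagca
JUND, chr19:18281785-18281852, minus strand: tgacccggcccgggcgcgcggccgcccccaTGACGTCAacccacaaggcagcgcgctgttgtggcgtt

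FOSL2 was the 1 member of the 6 with the TPA response element, at base 5 after the start; 4.95% of all 35116 windows hold it. JUND alone held the full cAMP response element TGACGTCA, which stood 200 bases before the start and is present in 1.85% of windows. JUN alone held the variant TGACATCA, the word of its own promoter through which JUN and ATF2 act, 67 bases before the start (2.61% of windows). The shorter word TGACG, which the full cAMP response element contains, was present in all 6 windows, against 24.6% of all windows. In FOS and FOSB it lay 64 and 60 bases before the start, and in JUNB 137. The core of the serum response element (CArG box) was in none of the 6 windows and in 1.29% of all windows. The windows reach only 250 bases before the start, so a serum response element further upstream would be missed. These matches are letters in a window and say nothing of binding.

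Expression is given as FPKM (fragments for each kilobase of RNA, relative to depth), added up over all transcripts of a gene. The step between low values gave rough depths of 21100000 and 27600000 fragments in the knockdown libraries and 17300000 and 24100000 in the controls. AURKA had 22.3 and 23.7 FPKM in the knockdown libraries, against 124 and 99.1 FPKM in the controls, 4.86-fold lower in the knockdown with no overlap. Its log2 difference was -2.22, with an adjusted p from limma of 0.0822 without a block and 0.000633 with the block described next. The 6 markers of the line summed to 2480 and 2398 FPKM in the knockdown and 2777 and 2685 FPKM in the controls, with 3 of 6 below 0. Among them AXL fell and FN1 rose in the blocked fit (FN1 log2 0.70, adjusted p from limma 0.539 in the main test and 0.0127 blocked). Of 8 luminal markers, ESR1, PGR and CDH1 were under 1 FPKM in every library, whereas KRT8 (237 to 259 FPKM) and KRT18 (265 to 346 FPKM) made up most of a sum of 582 and 589 FPKM in the knockdown and 512 and 612 FPKM in the controls. The leukocyte gene CD3E was listed at 0 throughout. The 5 leukocyte markers summed to 47.9 and 52.9 FPKM in the knockdown and 64.5 and 64.3 FPKM in the controls, nearly all of it CD68, and the part of this in the results was not tested. Differences were tested by limma across 12137 genes on log2(FPKM + 1), a scale that understates the change of low genes, with Benjamini-Hochberg adjustment over all of them and a threshold of 0.05. Tables of the same replicate number list transcripts in the same order, and tables of different numbers do not. Whether the number marks separate cultures or separate processing cannot be told apart. Each result is given from the fit without a block, which is the main test, and from a second one in which the replicate number is a block, called the blocked fit. The main test called 0 genes (0% of those tested), with 777 at an unadjusted p under 0.05. The blocked fit called 427 (3.52%), of which 233 were lower (1.92%) and 194 higher (1.6%) in the knockdown. Without mitochondrially encoded genes the split was 286 lower and 370 higher.

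All 7 members were tested, and each had over 1 FPKM in every library. In the blocked fit FOSL1 and FOS fell, 0 members rose and 5 did not pass, which makes 2 of 7 called lower beside the 1.92% of all genes called lower. Both knockdown libraries lay below both controls for 1 member, FOSL1, and above both for 1 member, JUND, beside 16.6% and 19.4% of all tested genes. The difference was below 0 for 6 of 7 members, and for 47.7% of tested genes. The median difference of the members was -0.33 on the log2 scale, and that of all tested genes was 0.01.

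**Figure D1:**
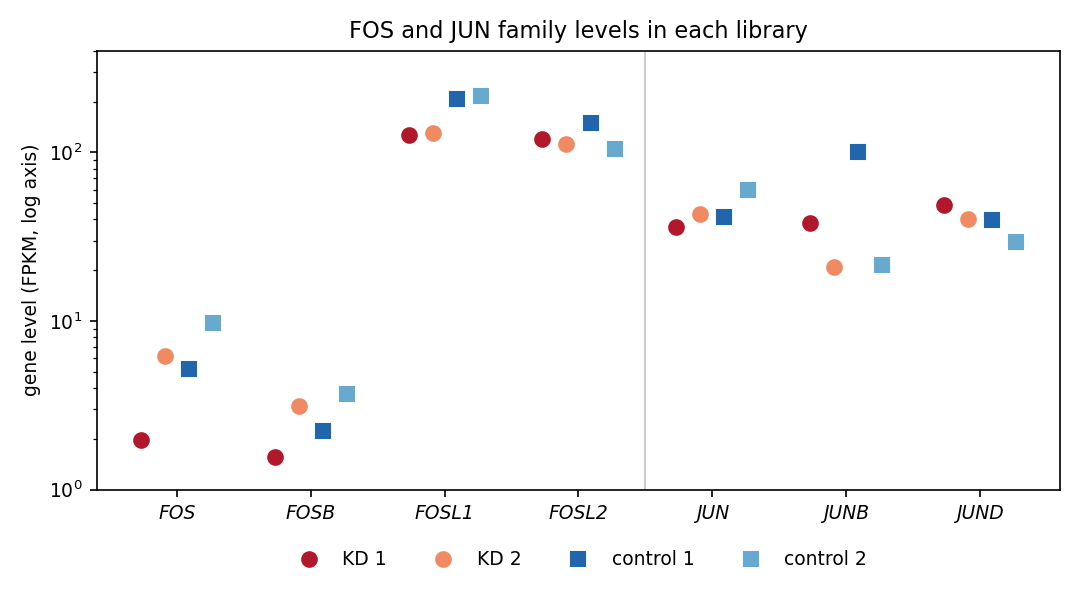
Level of each FOS and JUN family gene in every library (FPKM, log axis), with knockdown libraries as circles and controls as squares. FOSL1 sits at 127 and 130 FPKM in the knockdown and at 207 and 216 FPKM in the controls, and JUNB is spread from 21.0 to 99.8 FPKM.

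FOSL1, the most abundant member in every library, was the one that differed most steadily. FOSL1 (ENSG00000175592, chromosome 11, 65659519 to 65668044 in the files' GRCh37 coordinates) had 127 and 130 FPKM in the knockdown libraries, against 207 and 216 FPKM in the controls. Libraries of a group lay close together and the groups were far apart: 128.6 ± 1.76 FPKM in the knockdown and 211.7 ± 6.01 FPKM in the controls (SD, n = 2 each), 1.65-fold lower in the knockdown. The log2 difference was -0.71, with a standard error of 0.11 in the main test and 0.08 in the blocked fit. The adjusted p from limma was 0.315 in the main test and 0.00852 in the blocked fit. Within replicate 1 the difference was -0.70 and within replicate 2 it was -0.73. Just 9.01% of tested genes had a smaller gap between the knockdown libraries, and 13.3% a smaller one between the controls.

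The groups did not overlap for the main FOSL1 transcript and for 2 minor ones, all lower in the knockdown. The transcript of 1669 bases (ENST00000312562), which held 71.1% to 79.6% of the gene's FPKM, had 97.8 and 92.3 FPKM in the knockdown and 165 and 157 FPKM in the controls. The transcript of 1132 bases (ENST00000532401) had 7.83 and 7.28 FPKM in the knockdown and 17.6 and 13.4 FPKM in the controls. The one of 1427 bases (ENST00000448083) had 8.81 and 11.4 FPKM in the knockdown and 13.9 and 15.2 FPKM in the controls. The other 2 listed transcripts, of 1200 and 584 bases, overlapped between the groups.

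FOSL2, the other late-responding FOS-type member, did not pass. FOSL2 (ENSG00000075426, chromosome 2, 28615668 to 28640179) had 120 and 111 FPKM in the knockdown libraries, against 149 and 104 FPKM in the controls. The groups overlapped, and the difference changed sign between the replicate numbers, at -0.31 in replicate 1 and 0.10 in replicate 2. On average it was -0.11 ± 0.11 on the log2 scale (standard error of the blocked fit), with an adjusted p from limma of 0.969 in the main test and 0.61 in the blocked fit. Its transcript of 6708 bases held 57.4% to 63.6% of the sum in the 4 libraries. In both groups FOSL1 lay above FOSL2 without overlap.

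FOS, the classic serum-induced member, was at a low level in all libraries. FOS (ENSG00000170345, chromosome 14, 75745476 to 75748933) had 1.97 and 6.21 FPKM in the knockdown libraries, against 5.23 and 9.79 FPKM in the controls. The higher knockdown library exceeded the lower control, so the groups overlapped, yet each knockdown library lay below the control of its number. The differences were -1.07 in replicate 1 and -0.58 in replicate 2, with an average of -0.82 ± 0.16 on the log2 scale (standard error of the blocked fit). The adjusted p from limma was 0.851 in the main test and 0.0448 in the blocked fit. That call was lost with a pseudocount of 0.1 or without the filter on low values. With a library left out and no block, the difference was -0.19 without knockdown replicate 1, -1.46 without knockdown replicate 2 and -0.43 without control replicate 2. Such a fit sets libraries of unlike numbers against each other. Replicate 1 over replicate 2 was -1.28 in the knockdown and -0.79 in the controls on the log2 scale, and this gap enters those values.

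The values rest on few fragments, about 83 and 230 in the knockdown libraries and 140 and 270 in the controls, by FPKM, transcript length and estimated depth. Counting error alone is then about 10.95% and 6.61% in the knockdown and 8.59% and 6.06% in the controls. Most of the FOS difference lay outside its longest transcript. The transcript of 2158 bases (ENST00000303562) had 1.74 and 1.71 FPKM in the knockdown, against 2.71 and 1.87 FPKM in the controls, a log2 difference of -0.26. The form of 796 bases (ENST00000554617) was listed at 0 and had 1.40 FPKM in the knockdown libraries, against 1.37 and 2.68 FPKM in the controls. The form of 567 bases (ENST00000554212) was at 0 FPKM in each knockdown library and had 0.811 and 0.693 FPKM in the controls.

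FOSB, another immediate early member, was lowest of all. FOSB (ENSG00000125740, chromosome 19) had 1.57 and 3.14 FPKM in the knockdown libraries, against 2.23 and 3.68 FPKM in the controls. The groups overlapped, and the difference was -0.26 ± 0.15 on the log2 scale (standard error of the blocked fit), with an adjusted p from limma of 0.938 in the main test and 0.374 in the blocked fit. The files place FOSB in a locus from 45882891 to 45982086 that also holds CD3EAP, ERCC1 and PPP1R13L, and the strand setting of the counting is not given, so its level is uncertain. In the knockdown FOS and FOSB overlapped in level, and in the controls FOS lay above FOSB.

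**Figure D2:**
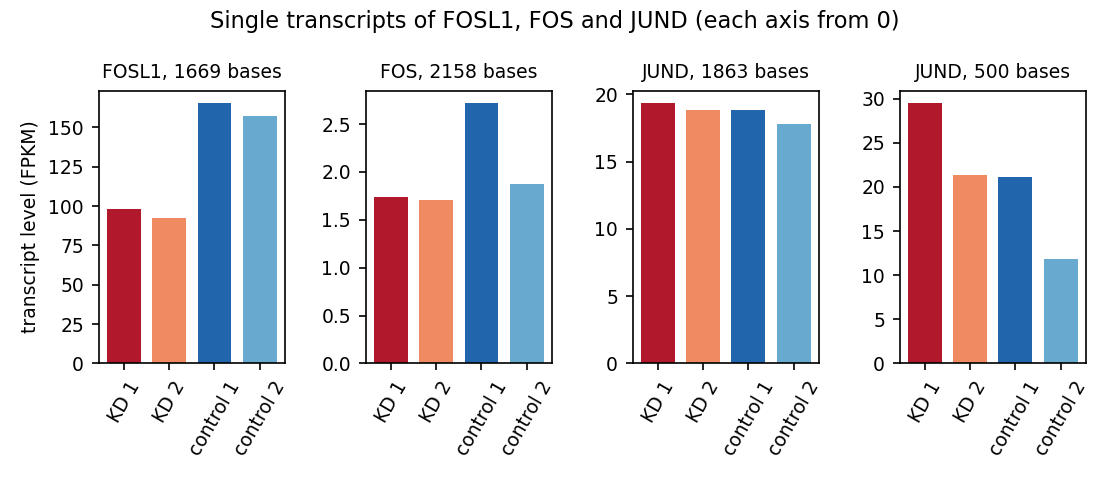
Level of single transcripts (FPKM, each axis from 0) in the knockdown and control libraries. The FOSL1 transcript of 1669 bases is at 97.8 and 92.3 FPKM in the knockdown and 165 and 157 FPKM in the controls, while the JUND transcript of 1863 bases differs little and the one of 500 bases ranges from 11.8 to 29.4 FPKM.

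JUN, the founding JUN-type member, did not pass. JUN (ENSG00000177606, chromosome 1, 59246464 to 59249785), whose promoter word is shown above, had 36.0 and 42.8 FPKM in the knockdown libraries, against 41.5 and 59.4 FPKM in the controls. The higher knockdown value was just above the lower control value, and each knockdown library lay below the control of its number. The log2 differences were -0.20 in replicate 1 and -0.46 in replicate 2, on average -0.33 ± 0.10 (standard error of the blocked fit). The adjusted p from limma was 0.854 in the main test and 0.107 in the blocked fit. With median-of-ratios scaling the blocked fit called JUN lower, at an adjusted p from limma of 0.0405. That fit called 1209 of 12137 genes, 683 of them lower, against 427 in the blocked fit without that scaling.

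JUNB, which can oppose JUN at some promoters, was set apart by a single control library. JUNB (ENSG00000171223, chromosome 19, 12902309 to 12904124) had 38.2 and 21.0 FPKM in the knockdown libraries, against 99.8 and 21.6 FPKM in the controls. Control replicate 1 was 4.62-fold above control replicate 2, a wider gap than in 99.8% of tested genes, and the groups overlapped. The log2 difference was -1.36 in replicate 1 and -0.04 in replicate 2. The average of -0.70 had an adjusted p from limma of 0.921 in the main test and 0.187 in the blocked fit. Without control replicate 1 the difference was 0.38, with both knockdown libraries set against control replicate 2 alone. Knockdown replicate 1 then has no control of its number, and within replicate 2 the difference was -0.04. In the blocked fit with median-of-ratios scaling, JUNB was called lower, at an adjusted p from limma of 0.0195. That fit called 683 of 12137 genes lower.

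Of the 19 tested immediate early genes outside the family, 18 were higher in control replicate 1 than in control replicate 2. The share of all tested genes higher there was not counted, so only the medians below can be compared. Within the family FOS, FOSB and JUN went the other way, at -0.79, -0.53 and -0.51 for control replicate 1 over control replicate 2 on the log2 scale. For the 19 genes the median of control replicate 1 over control replicate 2 was 0.53 on the log2 scale, against 0.07 for all tested genes. For knockdown replicate 1 over knockdown replicate 2 it was 0.18, against 0.04 for all. IER3, an anti-apoptotic early gene, had 168 and 84.5 FPKM in the knockdown libraries, against 336 and 117 FPKM in the controls. The part of this library in the JUNB result beyond the value without it was not tested.

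JUND, the constitutively expressed JUN-type member, was the one with higher values in the knockdown. JUND (ENSG00000130522, chromosome 19, 18390562 to 18392432) had 48.8 and 40.2 FPKM in the knockdown libraries, against 39.9 and 29.6 FPKM in the controls. The groups did not overlap, but the lower knockdown value barely exceeded the higher control value. The log2 difference was 0.36 ± 0.09 (standard error of the blocked fit), 0.28 in replicate 1 and 0.43 in replicate 2. The adjusted p from limma was 0.825 in the main test and 0.0759 in the blocked fit, and 0.0319 in the blocked fit with median-of-ratios scaling. The last of these fits called 526 of 12137 genes higher.

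The JUND difference lay almost wholly in its short transcript. The transcript of 500 bases (ENST00000600972) had 29.4 and 21.3 FPKM in the knockdown, against 21.1 and 11.8 FPKM in the controls. The transcript of 1863 bases (ENST00000252818) had 19.3 and 18.9 FPKM in the knockdown, against 18.8 and 17.8 FPKM in the controls. The log2 differences were 0.63 for the short form and 0.06 for the long one. FPKM divides by length, so the short form weighs more in the gene sum than its fragments do.

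**Figure D3:**
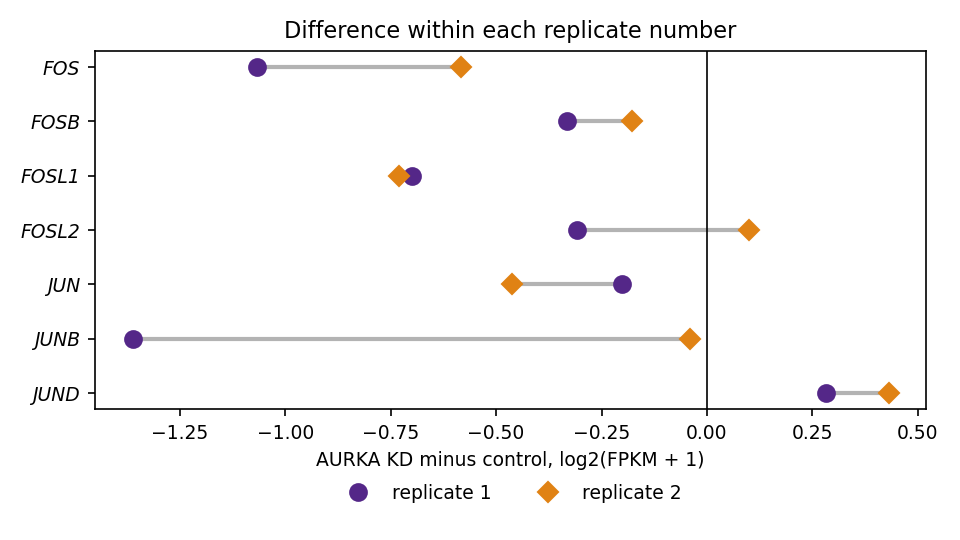
Difference between knockdown and control on the log2(FPKM + 1) scale within replicate 1 (circles) and replicate 2 (diamonds). The 2 values of FOSL1 nearly coincide at -0.70 and -0.73, those of JUNB lie at -1.36 and -0.04, and FOSL2 is the member whose values fall on both sides of 0.

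Each member was also set against the sum of its type. FOSL1 and FOSL2 together made up nearly all FOS-type expression. FOSL1 held 50.7% and 51.8% of it in the knockdown libraries, against 57.0% and 64.8% in the controls. FOSL2 held 47.9% and 44.5% in the knockdown, against 41.0% and 31.2% in the controls. The difference between knockdown and control was -9.61 percentage points for the FOSL1 share and 10.1 points for that of FOSL2, with no overlap between groups for either. Without control replicate 2 these were -5.72 and 5.20 points, and without control replicate 1 the FOSL2 value was 15.0 points. An exact two-sided permutation test gave p = 0.333 for each, which is the smallest p that 2 libraries against 2 allow. As FOSL1 and FOSL2 make up nearly all of the sum, their shares nearly mirror each other and are not separate results. The FOSL2 level itself differed by -0.11 on the log2 scale, with overlapping groups. FOS held 0.785% and 2.48% in the knockdown and 1.44% and 2.94% in the controls, and FOSB between 0.614% and 1.25% in all 4 libraries.

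The ratio of FOSL1 to FOSL2 was 1.06 and 1.16 in the knockdown libraries, against 1.39 and 2.08 in the controls. Both FOSL ratios in the knockdown lay below both in the controls (exact two-sided permutation p = 0.333). The ratio restates the shares above and is not a further result. Summed FOS-type expression was 251.1 and 250.7 FPKM in the knockdown, against 364 and 333 FPKM in the controls, a log2 difference of -0.48. That sum is dominated by FOSL1 and FOSL2. Its groups did not overlap.

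On the JUN side the make-up differed more between replicates than between groups for JUN and JUNB. JUN held 29.3% and 41.2% in the knockdown libraries, against 22.9% and 53.7% in the controls. JUNB held 31.1% and 20.2% in the knockdown, against 55.1% and 19.5% in the controls. JUND held 39.7% and 38.7% in the knockdown, against 22.0% and 26.7% in the controls, a difference of 14.8 points with no overlap. The exact two-sided permutation test gave p = 0.333, again the smallest possible. With JUND taken at its long transcript alone the JUND share was 20.7% and 22.8% in the knockdown and 11.8% and 18.0% in the controls, a difference of 6.86 points.

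Summed JUN-type expression was 123 and 104 FPKM in the knockdown, against 181 and 111 FPKM in the controls, and the groups overlapped. FOS-type expression exceeded JUN-type expression in each library, by 2.04-fold and 2.41-fold in the knockdown and by 2.01-fold and 3.02-fold in the controls. The ratio of the types thus overlapped between the groups (exact two-sided permutation p = 1). In bulk RNA, fewer cells expressing a gene and less RNA per cell cannot be told apart.

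**Figure D4:**
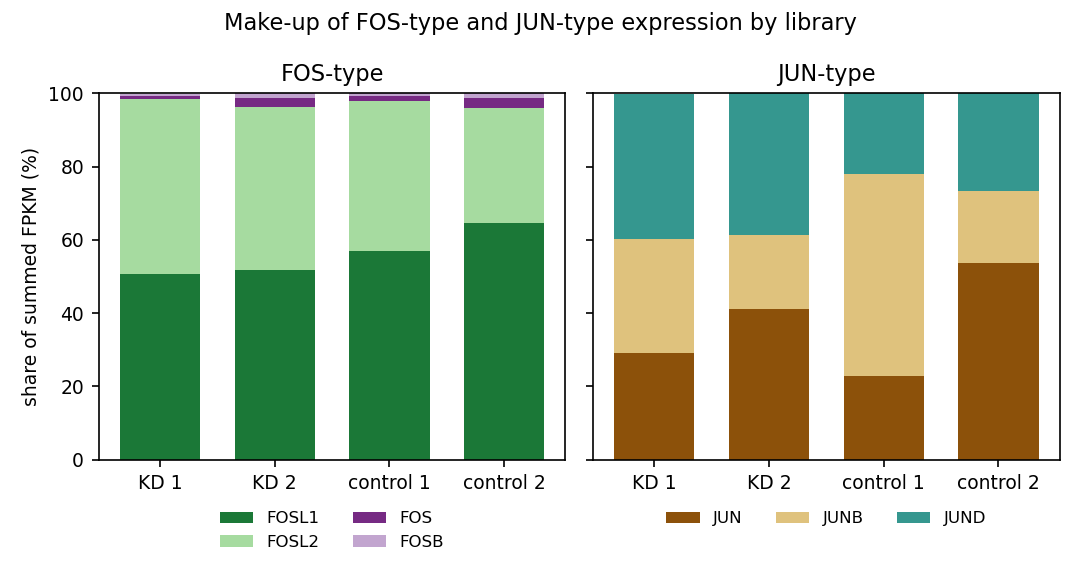
Share of each gene in the summed FPKM of its type, for each knockdown and control library. FOSL1 takes 50.7% and 51.8% of FOS-type expression in the knockdown and 57.0% and 64.8% in the controls, and control replicate 1 stands out by its JUNB share of 55.1%.

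The members also differ in their 3′ UTRs, where AU-rich words can mark short-lived messages. The word ATTTA was in 74.0% of searched genes, so its presence alone sets no member apart. In GENCODE 29 the FOS 3′ UTR (806 bases) holds 5 ATTTA words, or 6.20 per kilobase, more than 95.6% of the 11703 tested genes searched. JUNB holds 2 in 500 bases (4 per kilobase) and JUN 3 in 1287 bases (2.33 per kilobase). FOSL1 holds 1 in 837 bases, or 1.19 per kilobase, below the median of 1.73 over all searched genes. FOSB (1.38 per kilobase) and JUND (1.47 per kilobase) also lie below that median, and FOSL2 holds 9 words (1.85 per kilobase). Each gene was read at its longest annotated 3′ UTR, which for FOSL1 belongs to a minor transcript (ENST00000448083). The longer nonamer TTATTTATT was found in FOS and FOSL2 and in 9.60% of searched genes. In FOS it stands in this stretch, with the ATTTA words in capitals, which begins at base 636 after the stop codon.
FOS, 3′ UTR, chromosome 14: tgtttttaATTTATTTAttaagatggattc

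The word GAGACCT, picked out in earlier work on these data, was in the 3′ UTR of 90 of 229 searched genes called lower in the blocked fit (39.3%), against 11.1% of all searched genes. It was in the annotated 3′ UTR of 0 of the 7 members. As the word was picked out on these data, its excess among genes called on them is not independent support. No allowance was made for the length of the 3′ UTR. Of the 6 members with a promoter window, FOS, FOSB and JUNB held the word TATAAA, 30 to 33 bases before the start. It was in 11.5% of all windows. FOS, FOSB and JUNB were also the members whose knockdown libraries lay furthest apart, with gaps wider than in 99.7%, 96.5% and 98.3% of tested genes. This coincidence was noticed after the values were seen.

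Genes that act on AP-1 were mostly not called in the blocked fit, which called 3.52% of all tested genes. At that share lists this short would hold few or no calls, so their counts say little. Of 13 tested genes of the ERK arm, 0 passed in either fit; the largest difference was that of RPS6KA1, the kinase RSK1, at 12.7 and 9.73 FPKM in the knockdown and 17.0 and 14.2 FPKM in the controls (adjusted p from limma 0.779, and 0.0695 in the blocked fit). Of 11 tested genes of the JNK arm, whose kinases phosphorylate JUN, 0 passed. MAP3K4 differed most there and in opposite directions between replicates, with 17.8 and 34.5 FPKM in the knockdown and 25.0 and 14.1 FPKM in the controls (adjusted p from limma 0.921, and 0.543 in the blocked fit). The medians of the lists were -0.03 for the ERK arm and -0.05 for the JNK arm, against 0.01 for all tested genes. In the blocked fit, 1 gene of the ERK arm was called with median-of-ratios and with upper-quartile scaling. Those fits called 1209 and 793 genes in all.

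Serum response factor and its partners, which drive FOS through the serum response element, had 0 of 7 called. Their median was -0.25, against 0.01 for all tested genes. ELK4, a ternary complex factor, had 12.1 FPKM in both knockdown libraries, against 17.0 and 13.7 FPKM in the controls (adjusted p from limma 0.822, and 0.184 in the blocked fit). Of 10 tested genes of AP-1 protein turnover 0 passed. USP28, a deubiquitinase known to stabilise JUN, had 7.12 and 5.54 FPKM in the knockdown, against 10.1 and 11.9 FPKM in the controls (0.539, and 0.057 in the blocked fit). Among 13 tested bZIP partners outside the family, 1 fell in the blocked fit, CREB5, beside 1.92% of all genes. CREB5 had 3.04 and 3.80 FPKM in the knockdown and 6.58 and 6.17 FPKM in the controls (adjusted p from limma 0.537 in the main test, 0.0473 blocked).

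Textbook AP-1 target genes that passed all fell. Of 23 tested, 0 passed in the main test; in the blocked fit 7 fell and 0 rose, beside 1.92% and 1.6% of all genes, and 18 had a difference below 0. The median was -0.26, at -0.42 in replicate 1 and -0.16 in replicate 2, against 0.01 for all tested genes. For these targets control replicate 1 stood above control replicate 2 by a median of 0.34, against 0.07 for all tested genes, and the part of this in the list's median was not tested. IL11, a gp130 cytokine, had 26.1 and 34.3 FPKM in the knockdown libraries, against 75.5 and 81.9 FPKM in the controls (log2 -1.36, blocked adjusted p from limma 0.00229). HMGA1, an architectural chromatin protein, had 533 and 548 FPKM in the knockdown, against 925 and 1034 FPKM in the controls (log2 -0.85, 0.00867). HBEGF, a ligand of the EGF receptor, had 20.6 and 19.4 FPKM in the knockdown, against 36.2 and 35.9 FPKM in the controls (log2 -0.82, 0.0087).

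Further targets past the threshold in the blocked fit included F3, PLAU and AXL. F3 (tissue factor), PLAU (urokinase) and AXL (a receptor tyrosine kinase) fell by 0.72, 0.67 and 0.41 on the log2 scale. In all 7 called targets both knockdown libraries lay below both controls, beside 16.6% of all tested genes. The 7 were called lower on these same libraries, so this adds no independent support. The list was drawn up with earlier results of these data known, several of its genes are also targets of other factors, and AXL is also among the markers of the line. IL8 had 42.7 and 33.9 FPKM in the knockdown, against 265 and 28.2 FPKM in the controls, and IL1A had 1.48 and 1.11 FPKM in the knockdown, against 9.15 and 1.45 FPKM in the controls. As with JUNB, control replicate 1 stood far above the other libraries for these 2 genes, and neither passed. The matrix protease MMP14 and the cell cycle gene CCND1 did not pass either, with log2 differences of -0.33 and 0.01.

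**Figure D5:**
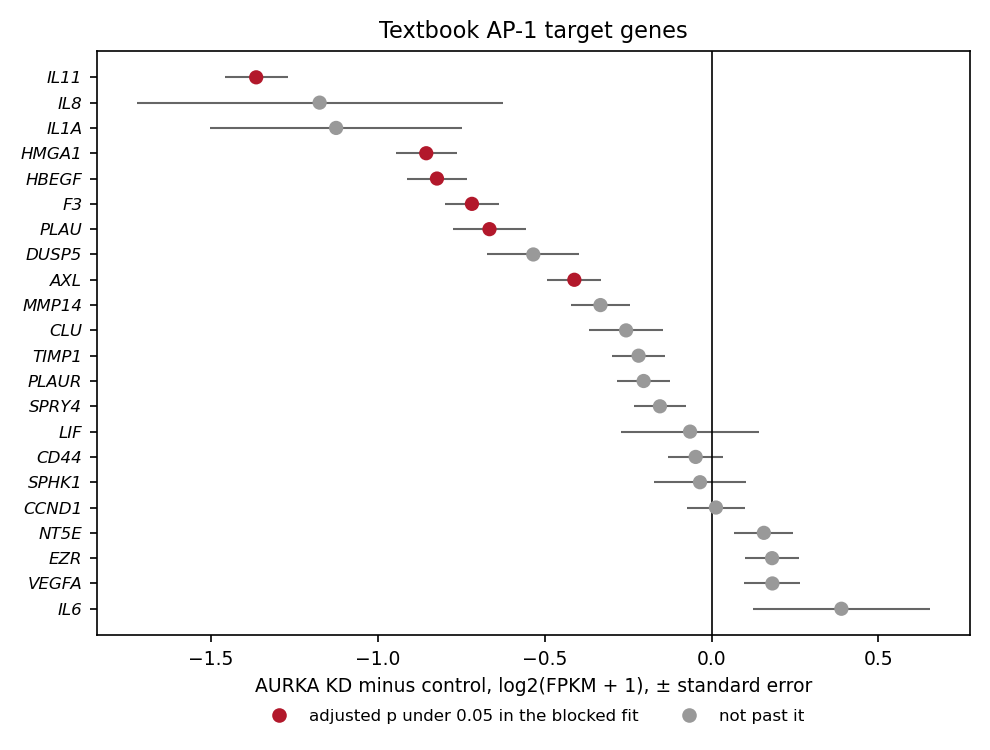
Difference between knockdown and control of the tested textbook AP-1 target genes, apart from 1 not reported here, on the log2(FPKM + 1) scale, with the standard error of the blocked fit. Genes past the threshold in that fit are red, and all 6 of those drawn lie below 0.

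Of the 19 tested immediate early genes outside the family, EGR1 and IER3 fell and KLF2 rose in the blocked fit, and 0 passed in the main test. Of all tested genes, the blocked fit called 1.92% lower and 1.6% higher. EGR1, a zinc finger factor induced along with FOS, had 21.5 and 11.1 FPKM in the knockdown libraries, against 36.4 and 19.6 FPKM in the controls. Its groups overlapped (log2 -0.75, adjusted p from limma 0.822 in the main test and 0.0132 blocked). KLF2 had 67.2 and 35.6 FPKM in the knockdown, against 27.1 and 22.3 FPKM in the controls (log2 0.97, 0.636 and 0.0243). The median of the list was -0.27, at -0.49 in replicate 1 and -0.05 in replicate 2, against 0.01 for all tested genes.

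Among 7579 other tested genes with a mean of at least 10 FPKM, those whose 4 values followed FOSL1 most closely were CDCA4, CSRP1 and ATP1B1. Likeness was the distance between the centred log2 values over the 4 libraries, which was 0.03, 0.05 and 0.06. CSRP1, a cytoskeletal LIM protein, had 60.2 and 59.1 FPKM in the knockdown, against 99.8 and 102 FPKM in the controls. For FOS the nearest were RPL22L1, SMC1A and EXO1, at larger distances of 0.29, 0.45 and 0.50. RPL22L1, a paralog of a ribosomal protein, had 63.9 and 120 FPKM in the knockdown, against 128 and 214 FPKM in the controls. With 4 libraries such likeness is a description.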

How the data were processed

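For each library the authors deposited a table of 81493 transcripts. Its header names no unit, and the deposited values were taken to be FPKM from their form. Named in the submitters' processing notes are hg38, HTSeq 0.8.0 and bcl2fastq 2.19, while the loci in the files are those of GRCh37, and no source used here gives the program behind the FPKM values. Of the transcripts, 81412 stand in all tables, including all 32 of the members. Values were summed by gene ID, and genes reaching 1 FPKM in 2 or more libraries were tested (limma 3.58.1 with a trended prior, R 4.3.3, two-sided, pseudocount 1), a procedure checked on simulated data. The members and lists were chosen with earlier results of these data known. Named from each list were up to 4 called genes with the largest difference in the blocked fit, or the 1 largest where none was called; further list genes were named after their values were seen. Named too were the 3 genes of mean 10 FPKM or more nearest in pattern to FOSL1 and to FOS. Alternatives covered the replicate block, the pseudocount, the filter, scaling, transcript choice and leaving out each library. Depths come from the value of 1 read in genes with 1 transcript over 2000 bases. The main cluster held 76 of 246 to 104 of 210 such genes, so the depths are rough. The percentages for counting error cover that error only. Values of a few list genes are not reported here, though the lists' counts and medians include them.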

Additional observations from a re-analysis of the deposited data

How the results depend on the processing

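Same-numbered libraries deviated together across genes (r = 0.645), but the labels do not say what the number marks, and 2 pairs alone do not establish pairing. With the replicate number as a block (replicate block), 427 genes were called instead of 0, and among the lists' genes 11 instead of 0. Without the block the count was 1 with a minimum of 5 FPKM, 2 with median-of-ratios scaling, 1 without mitochondrially encoded genes, and 6 to 14 with a library left out. In the blocked fit it was 289 with pseudocount 0.1, 443 with a minimum of 5 FPKM, 1209 with median-of-ratios and 793 with upper-quartile scaling, 656 without mitochondrially encoded genes, 417 with only transcripts in all tables, and 0 with no filter. In the same order the lists' genes called were 8, 13, 23, 18, 15, 11 and 0, and with a library left out 0 to 4.

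FOSL1 kept its direction throughout and passed in 7 of 8 blocked fits, with log2 differences of -0.71, -0.72, -0.71, -0.73, -0.72, -0.68 and -0.71. With no filter its adjusted p from limma was 0.12. FOS passed in 6 of 8 (-0.82, -0.82, -0.83, -0.83, -0.82 and -0.82). JUN (-0.34), JUNB (-0.71) and JUND (0.34) each passed in 1, with median-of-ratios scaling, the fit that called most genes (1209 of 12137). Without the block 0 of the 7 members passed, in 12 fits each (11 for FOSB, which 5 FPKM removes). With a library left out, FOS ranged from -1.46 to -0.19, JUN from -0.58 to -0.08 and JUND from 0.15 to 0.57. FOSB ranged from -0.60 to 0.088 (0.011 without control replicate 2), FOSL2 from -0.36 to 0.15, JUNB from -1.78 to 0.38, and FOSL1 from -0.74 to -0.69. The log2 difference of the FOS-type sum ranged from -0.54 to -0.41 and that of the JUN-type sum from -0.68 to 0.038, the highest without control replicate 1. All of these ranges come without a block, so gaps between replicate numbers enter them. Within the replicates FOSB differed by -0.33 and -0.18, both below 0. The JUND share difference of 14.8 points became 7.10 points in estimated fragments and 6.86 points at the long transcript, both added after seeing the data; the cause was not tested.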

Other observations

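The make-up of the 2 low FOS-type genes by transcript was unstable between libraries. The longest FOS transcript, of 2158 bases, held 88.5% and 27.5% of the gene's FPKM in the knockdown libraries, against 51.9% and 19.1% in the controls. In FOSB the transcript of 2170 bases (ENST00000590335) held 34.5% and 58.3% in the knockdown, against 10.6% and 68.0% in the controls. In both genes the replicates of a group differed more than the groups, and 4 of the 10 listed FOSB transcripts were at 0 in every library.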
